A study of Mus musculus with 9 samples.

Results

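The endoplasmic reticulum (ER) chaperone and unfolded protein response genes are 33 genes for folding, quality control and stress signalling in the ER, where collagens and other secreted proteins are made. They were chosen by symbol from a list of known ER genes, and all 33 of 33 were found among the 43644 genes measured. All 33 were also among the 29107 genes that passed the filter on low values. RNA was sequenced from the coronal suture, a seam of fibrous tissue where the frontal bone of the skull meets the parietal bones, in C57BL/6 mice aged 7 months. The REG group was Twist1+/- and had undergone suture regeneration surgery at 1 month of age. The MUT group was Twist1+/- with no surgery, and the WT group was wild type with no surgery, with 3 libraries in each of the 3 groups. REG and MUT share the loss of a Twist1 copy, a transcription factor gene whose loss is a known cause of early fusion of this suture. None of the 3 groups was sham-operated, so the operation itself and the regenerated suture cannot be told apart, and nothing in the labels ties a library to an animal of its own.

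Proteins that enter the ER through the Sec61 channel are folded there by chaperones of the Hsp70 and Hsp90 families, by the lectins calnexin and calreticulin, and by disulfide isomerases. When unfolded protein builds up, the sensors IRE1 (Ern1), PERK (Eif2ak3) and ATF6 raise chaperone genes through the transcription factors XBP1, ATF6 and ATF4, a programme called the unfolded protein response. Osteoblasts and suture fibroblasts secrete large amounts of type I collagen and are known to need a large folding capacity. The question addressed here is whether these genes were lower where matrix genes were lower in MUT, and higher where they were higher in REG.

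The libraries differed in depth and background along with their group. Depth was between 18276494 and 39377876 estimated reads in REG, between 2945636 and 10894209 in MUT and between 16356391 and 20019712 in WT. A background level, estimated from olfactory and vomeronasal receptor genes, made up between 0.509% and 0.849% of the reads in REG, between 7.86% and 23.2% in MUT and between 0.615% and 0.867% in WT. Twist1 had deposited values of 3.76, 9.19 and 12.2 in REG, 0.987, 8.08 and 0.548 in MUT, and 16.2, 23.3 and 23.1 in WT. The deposited values are reads scaled so that the 75th percentile of genes was about 2.76 in each library. All 8 osteoblast markers and all 6 fibroblast and suture mesenchyme markers, Twist1 among the latter, had reads in every library. The mesenchyme markers summed to between 1736 and 3033 reads per 1e+06 (RPM) in REG, between 207 and 639 in MUT and between 1322 and 2580 in WT. In whole suture RNA, fewer cells of a type and less RNA per cell cannot be told apart.

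Most chaperone genes were lower in MUT than in WT and higher in REG than in MUT, and none was called between REG and WT. In MUT, 20 of the 33 genes fell relative to WT and none rose (limma, adjusted p under 0.05 over all 29107 genes). Of all genes tested, 14.6% were called lower and 20.5% higher in that comparison. The median log2 difference of the 33 genes was -1.64, against 0.18 over all genes tested. In REG, 17 of the 33 rose relative to MUT and none fell, where 11.8% of all genes were called higher and 24.8% lower. Their median log2 difference was 1.65, against -0.36 over all genes. Between REG and WT, 0 of the 33 were called by limma, as were 0 of all 29107 genes (0%), while without REG replicate 3 the counts were 1 of the 33, and 410 of all genes higher with 1186 lower. At an unadjusted p under 0.05 there were 2 of the 33 and 2755 of all genes. The smallest adjusted p of the 33 was 0.498, and their median log2 difference was -0.15, against -0.18 over all genes. The MUT libraries enter both of the first comparisons, so a MUT value moves both and the 2 sets of calls are not independent.

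**Figure D1:**
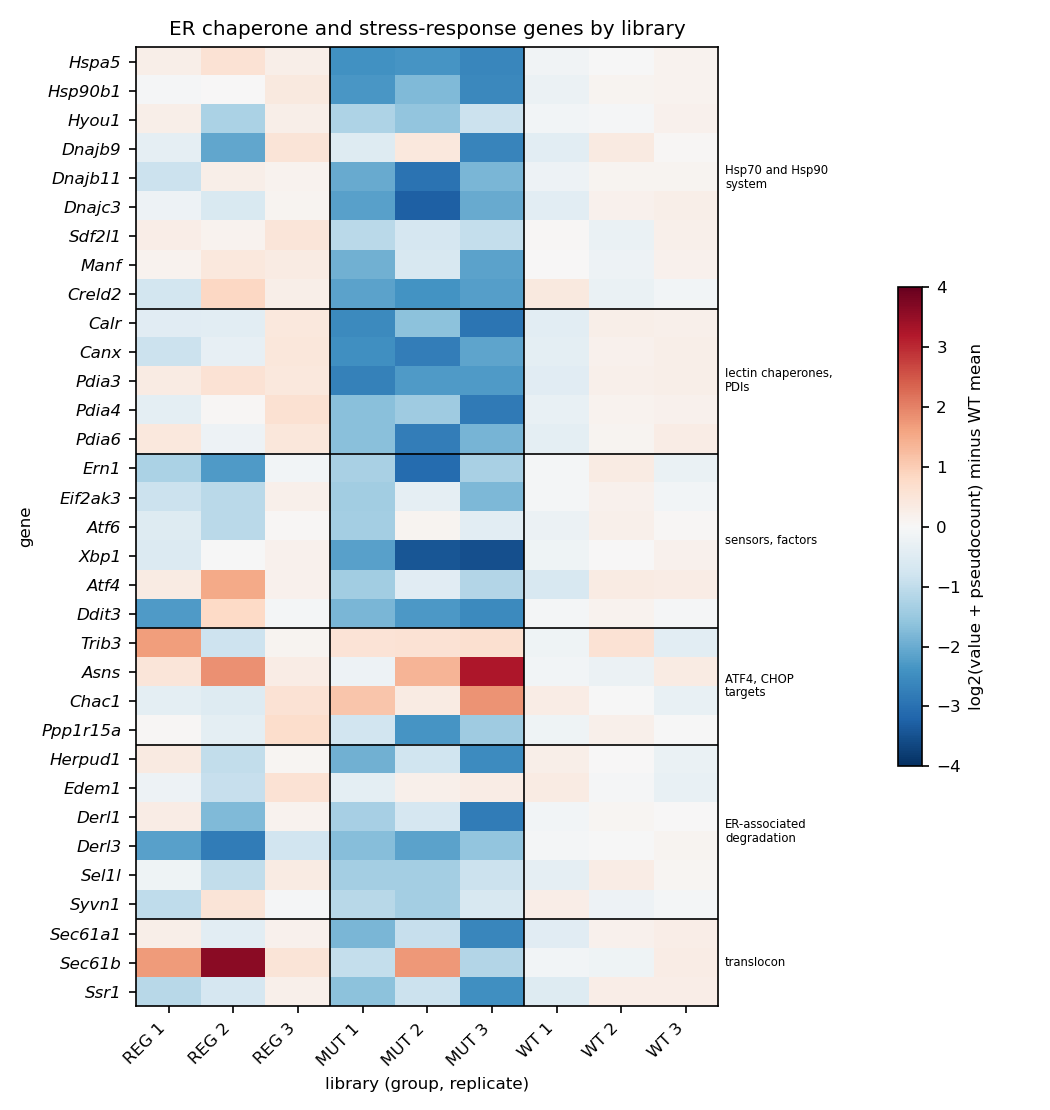
Heat map of the 33 genes (rows, grouped by role) in the 9 libraries (columns: REG, MUT, WT), showing log2(deposited value + 0.367) minus the WT mean of the gene. The 3 MUT libraries are blue in most rows of the upper blocks, with Trib3 and Chac1 as rows that lie above the WT mean there in all 3 and Asns in 2 of 3, while REG libraries are mostly pale.

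In the authors' deposited table, 19 of the 33 genes were lower in MUT than in WT at a false discovery rate (FDR) under 0.05, where 8.22% of all 43644 genes were. The authors' deposited table gave 17 of the 33 as higher in REG than in MUT, against 7.69% of all genes, and 0 as different between REG and WT, with a smallest FDR of 0.46. In the deposited values, all 3 MUT libraries lay below all 3 WT libraries for 25 of the 33 genes, against 25.9% of all genes tested, and above them for 1 gene, Chac1. The share of all genes on that upper side was not counted for deposited values. By limma, 20.5% of all genes tested were called higher in MUT than in WT. All REG libraries lay above all MUT libraries for 16 of the 33, against 14% of all genes tested.

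The promoters of several of these genes hold the ER stress response element, which ATF6 and XBP1 are known to bind together with NF-Y. Its windows are shown here because some of the chaperone genes described next hold it, as do the degradation genes Derl3 and Syvn1. Among the chaperone genes, Pdia3, Pdia4, Dnajb11, Sdf2l1 and Dnajb9 did not hold it, and Hyou1 and Manf had no promoter entry. The element was searched as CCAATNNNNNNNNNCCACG on both strands in the 250 bases before the start of each gene (RefSeq, GRCm38.p6). It was found in 9 of the 28 genes of the list that are in the promoter table, which were Hspa5, Hsp90b1, Dnajc3, Creld2, Calr, Canx, Pdia6, Derl3 and Syvn1. It was held by 35 of all 27025 gene symbols there (0.13%), and by 0 of the 15 matrix genes with an entry. The genes were listed for this response, so their share is a description of the list. The second form, ERSE-II (ATTGGNCCACG), was found in Herpud1 alone among the 28, and in 10 of all 27025 symbols (0.037%). Neither the XBP1 element TGACGTGG nor the ATF4 composite element TGATGNAAT was found in the 28 windows, against 0.603% and 0.91% of all symbols. Windows are given 5′ to 3′ on the strand of the gene, with 10 bases on each side of the match, which is in capitals:
Hspa5, chr2:34772015-34772053, plus strand: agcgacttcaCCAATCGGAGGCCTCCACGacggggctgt
Hsp90b1, chr10:86705628-86705666, minus strand: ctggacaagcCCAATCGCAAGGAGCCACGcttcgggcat
Hsp90b1, chr10:86705523-86705561, minus strand: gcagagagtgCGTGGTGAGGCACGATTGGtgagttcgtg
Calr, chr8:84847065-84847103, minus strand: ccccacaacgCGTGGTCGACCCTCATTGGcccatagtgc
Canx, chr11:50325790-50325828, minus strand: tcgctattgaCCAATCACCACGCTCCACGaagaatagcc
Pdia6, chr12:17266481-17266519, plus strand: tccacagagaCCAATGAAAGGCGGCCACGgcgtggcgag
Derl3, chr10:75893232-75893270, plus strand: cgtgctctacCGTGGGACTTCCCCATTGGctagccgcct
Syvn1, chr19:6046522-6046560, plus strand: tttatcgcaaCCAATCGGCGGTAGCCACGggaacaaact
Herpud1, chr8:94386367-94386397, plus strand: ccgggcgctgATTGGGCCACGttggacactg
Hspa5 holds the element 65 to 47 bases before its RefSeq start, the nearest to the start among the chaperones. Syvn1 holds it 44 to 26 bases before its own. Hsp90b1 holds it in both orientations. The deposited start of Hspa5 is 34771970, so by that start its window lies inside the gene. The windows of Dnajc3 and Creld2 are not listed.

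Of the 9 genes with the element, 8 were called lower in MUT than in WT and 7 higher in REG than in MUT, with median log2 differences of -2.24 and 2.25. Of the 19 in the table without it, 10 were called lower in MUT and 8 higher in REG, with medians of -1.19 and 1.19. Of all genes tested, 14.6% were called lower in MUT than in WT and 11.8% higher in REG than in MUT. With a filter 10 times stricter these shares were 34.8% and 24.3%. The set without the element includes genes of low values, such as Chac1 and Trib3. Whether the element goes with the size of the change was not tested. Syvn1 was the gene with the element that was not called in either comparison, and Derl3 the one that was lower in MUT without being higher in REG. Xbp1, with the largest decrease of the 33 in MUT, does not hold these letters in its window.

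The Hsp70 and Hsp90 system holds and releases unfolded chains. Of its 9 genes, 6 fell in MUT relative to WT and 7 rose in REG relative to MUT, with median log2 differences of -2.23 and 2.10. Hspa5, which encodes BiP, the main Hsp70 of the ER and a brake on all 3 sensors, had deposited values of 132, 165 and 129 in REG, 20.2, 21.4 and 17.9 in MUT, and 100.5, 110.3 and 122.7 in WT. Its MUT values were the lowest by a wide margin, and the REG values lay above the WT values without overlap. Hspa5 was 5.53-fold lower in MUT than in WT (log2 difference -2.47 ± 0.31 SE, limma adjusted p = 0.0012) and 7.03-fold higher in REG than in MUT (2.81 ± 0.31, adjusted p = 0.001). The difference of REG from WT was 0.35 ± 0.31 (adjusted p = 0.71).

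Hsp90b1 encodes GRP94, the ER Hsp90 that folds integrins and insulin-like growth factors. Its values were 178, 186 and 239 in REG, 36.4, 53.5 and 30.6 in MUT, and 155, 199 and 203 in WT. The MUT group did not overlap either of the others (log2 difference from WT -2.23 ± 0.34, limma adjusted p = 0.0022; REG minus MUT 2.34 ± 0.34, adjusted p = 0.002). An antisense pseudogene covers 10.3% of its exon bases, and it is not known from the labels whether counting used the strand.

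Of the 7 other genes of this class, 4 fell in MUT relative to WT and 5 rose in REG relative to MUT. Dnajc3 and Dnajb11, J-domain proteins that pass unfolded chains to BiP, were lower in MUT by log2 differences of -2.48 ± 0.42 and -2.27 ± 0.43 (limma adjusted p = 0.0032 and 0.0049), and higher in REG than in MUT by 2.25 and 2.10. Creld2, a gene induced by ER stress, had 3.92, 12.3 and 8.10 in REG, 1.28, 0.998 and 1.21 in MUT, and 9.03, 5.58 and 6.29 in WT, so MUT was low and tight while REG spread over its 3 libraries. Manf, a secreted stress-response protein, differed by -1.55 ± 0.42 in MUT from WT and by 1.86 ± 0.42 in REG from MUT (limma adjusted p = 0.019 and 0.009). Sdf2l1, a partner of Dnajb11, missed the threshold in MUT against WT (-0.89 ± 0.32, adjusted p = 0.052) and passed it in REG against MUT (1.19 ± 0.32, adjusted p = 0.017). Hyou1, the nucleotide exchange factor of BiP, had 30.2, 10.5 and 30.2 in REG, 10.5, 8.34 and 13.9 in MUT, and 23.6, 24.6 and 28.8 in WT. It was not called in MUT against WT (limma adjusted p = 0.057) or in REG against MUT (adjusted p = 0.12). Dnajb9, a cofactor that holds BiP on IRE1, had 3.88, 0.944 and 7.44 in REG, 3.49, 6.99 and 0.517 in MUT, and 3.73, 6.74 and 5.36 in WT and was called in neither. A pseudogene shares 10.8% of the 31-base words of Dnajb9.

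Of the lectin chaperones and disulfide isomerases, 5 of 5 genes fell in MUT relative to WT and 5 of 5 rose in REG relative to MUT. Their log2 differences ran from -2.45 to -1.97 in MUT against WT and from 2.07 to 2.85 in REG against MUT. Calr, calreticulin, a calcium-binding lectin that retains unfinished glycoproteins, had 115, 119 and 210 in REG, 26.5, 49.9 and 20.6 in MUT, and 117, 185 and 182 in WT. Canx, its membrane-bound partner calnexin, had 47.9, 70.1 and 121 in REG, 15.7, 12.6 and 20.04 in MUT, and 66.4, 99.4 and 103 in WT. In both genes the lowest REG or WT library exceeded the highest MUT library, and REG and WT overlapped.

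Pdia3, the disulfide isomerase that works with these lectins, had 94.6, 112 and 101 in REG, 11.3, 15.4 and 15.5 in MUT, and 54.8, 88.0 and 90.2 in WT. It was 5.34-fold lower in MUT than in WT (log2 -2.42 ± 0.34, limma adjusted p = 0.0017) and 7.21-fold higher in REG than in MUT (2.85 ± 0.34, adjusted p = 0.0012). Its REG values were all above its WT values, with a difference of 0.43 ± 0.34 that was not called (adjusted p = 0.68). Pdia4 and Pdia6, 2 further isomerases of the BiP complex, differed by -1.97 and -2.10 in MUT from WT and by 2.07 and 2.32 in REG from MUT, all called.

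**Figure D2:**
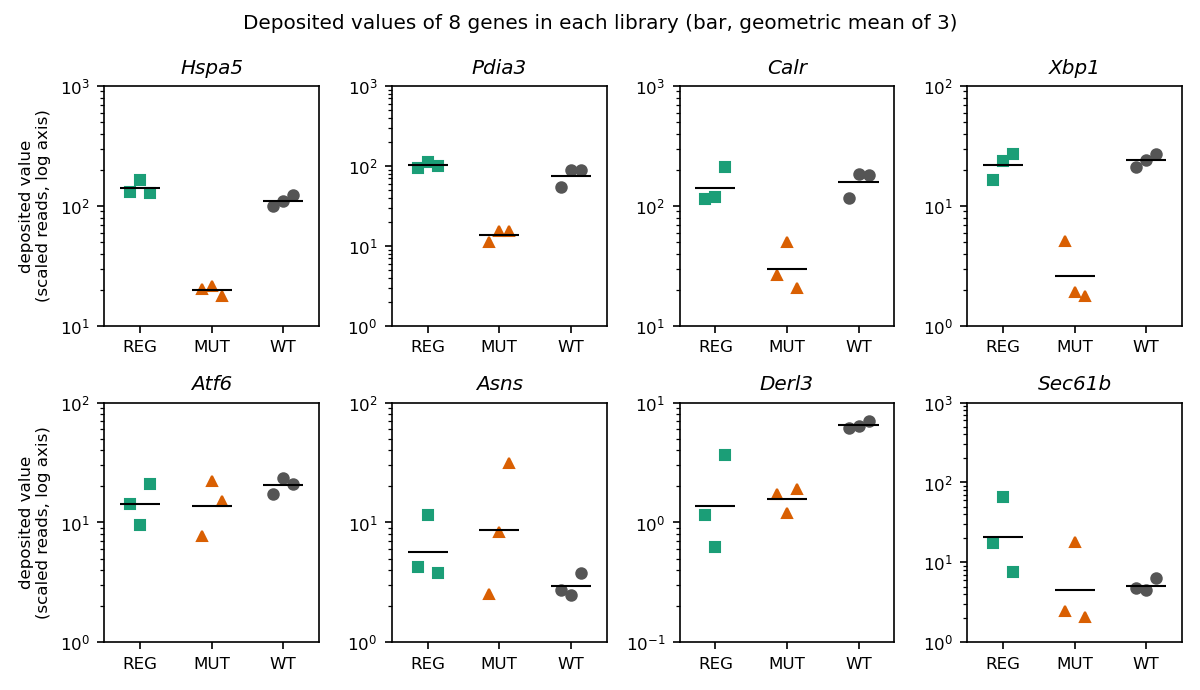
Deposited values (log axes) of 8 genes in each library, with REG, MUT and WT from left to right and a bar at the geometric mean of 3 libraries. For Hspa5, Pdia3, Calr and Xbp1 the MUT points lie apart from the others. Atf6 and Asns overlap between groups, Derl3 is low in REG and MUT, and Sec61b spreads widely in REG and MUT.

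Levels of different genes were compared per kb of exon. Calr stood at 51.4 ± 18.8 deposited units per kb in REG, 11.2 ± 5.39 in MUT and 56.0 ± 13.2 in WT (mean ± SD, n = 3 each). Hsp90b1 stood at 49.9 ± 8.23 in REG, 9.96 ± 2.94 in MUT and 46.0 ± 6.54 in WT, within the spread of Calr in each group. Hspa5 stood at 33.6 ± 4.76 in REG, 4.68 ± 0.42 in MUT and 26.3 ± 2.63 in WT, and Pdia3 at 32.7 ± 2.86 in REG, 4.47 ± 0.76 in MUT and 24.7 ± 6.32 in WT, within the spread of Hspa5. The sensors were far lower, with Ern1 at 1.19 ± 0.88 units per kb in REG, 0.70 ± 0.39 in MUT and 2.39 ± 0.52 in WT.

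Among the sensors and transcription factors, 3 of 6 were lower in MUT than in WT and 2 of 6 higher in REG than in MUT. Xbp1 encodes the transcription factor of the IRE1 branch, needed for ER expansion in secretory cells, and had 16.5, 23.9 and 27.1 in REG, 5.06, 1.93 and 1.78 in MUT, and 21.2, 24.1 and 27.3 in WT. It was 8.17-fold lower in MUT than in WT (log2 -3.03 ± 0.42, limma adjusted p = 0.0016) and 7.49-fold higher in REG than in MUT (2.90 ± 0.42, adjusted p = 0.002). Its MUT values rest on 309, 18 and 84 estimated reads. IRE1 activates XBP1 by splicing its mRNA, and values per gene do not show that splicing.

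Of the 3 sensors, 1 was called, and in 1 comparison. Atf6 had 14.3, 9.52 and 21.04 in REG, 7.73, 22.2 and 15.2 in MUT, and 17.2, 23.6 and 21.03 in WT, with overlap between all groups and no call in either comparison (log2 -0.55 ± 0.45, limma adjusted p = 0.36 in MUT against WT). Eif2ak3, which encodes the kinase PERK, had 10.4, 8.82 and 22.3 in REG, 7.00, 14.7 and 5.25 in MUT, and 18.3, 21.5 and 17.8 in WT and was not called (adjusted p = 0.074 in MUT against WT). Ern1, which encodes IRE1, was lower in MUT than in WT (-1.89 ± 0.62, limma adjusted p = 0.039), but its REG values of 7.76, 3.68 and 17.7 overlapped the MUT values of 7.58, 1.97 and 7.54, and the difference was not called (0.67 ± 0.62, adjusted p = 0.43). The call of Ern1 in MUT against WT held under 11 of 22 alternatives and was lost without any single MUT or WT library. In MUT, 35.6%, 80.7% and 30.1% of the Ern1 reads equalled the background estimate described above, with 19 reads in MUT replicate 2, and on RPM values MUT and WT overlapped. Whether Xbp1 changed more than the sensors was not tested.

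Atf4, the transcription factor of the PERK branch, is known to be controlled mainly at translation, which RNA levels do not show. It had 32.9, 74.5 and 29.1 in REG, 9.62, 18.7 and 11.3 in MUT, and 16.5, 32.8 and 31.9 in WT. It was called higher in REG than in MUT (log2 1.68 ± 0.48, limma adjusted p = 0.021) and not called in MUT against WT (-1.01 ± 0.48, adjusted p = 0.12). Ddit3 encodes CHOP, the factor that promotes cell death under lasting stress, and it was lower in MUT than in WT (-2.22 ± 0.66, limma adjusted p = 0.027). In REG it had 1.11, 12.1 and 6.44, so that the first of these libraries lay within the MUT range of 0.858 to 1.66, and the difference from MUT missed the threshold (1.70 ± 0.66, adjusted p = 0.068).

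Of the 4 targets of ATF4 and CHOP, 1 was called. Ppp1r15a encodes GADD34, which restores translation, and had 13.5, 9.80 and 21.2 in REG, 7.44, 2.20 and 4.59 in MUT, and 11.4, 14.8 and 12.8 in WT. It was called lower in MUT (-1.52 ± 0.46, limma adjusted p = 0.029) and higher in REG than in MUT (1.65 ± 0.46, adjusted p = 0.021). Asns, asparagine synthetase, had 4.27, 11.4 and 3.75 in REG, 2.55, 8.28 and 31.04 in MUT, and 2.76, 2.49 and 3.82 in WT. Its MUT libraries spread over the whole range, the highest being MUT replicate 3, and no difference was called (1.47 ± 0.76, adjusted p = 0.16 in MUT against WT). Chac1, a glutathione-degrading enzyme, had 0.152, 0.117 and 0.668 in REG, 1.12, 0.499 and 2.01 in MUT, and 0.480, 0.315 and 0.194 in WT, with log2 differences of 1.08 ± 0.46 in MUT from WT and -1.19 ± 0.46 in REG from MUT that were not called (limma adjusted p = 0.095 and 0.069). Trib3, a pseudokinase that inhibits ATF4, had 2.44, 0.131 and 0.586 in REG, 0.919, 0.950 and 1.02 in MUT, and 0.426, 0.952 and 0.302 in WT. Between 22.8% and 75.6% of the Chac1 reads and between 46.1% and 77.5% of the Trib3 reads in MUT equalled the background estimate.

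ER-associated degradation extracts misfolded proteins for the proteasome, and 3 of its 6 genes fell in MUT while 1 rose in REG relative to MUT. Herpud1, which organises the degradation complex and carries ERSE-II, had 19.9, 7.68 and 16.4 in REG, 3.87, 8.87 and 2.40 in MUT, and 18.5, 15.7 and 12.9 in WT. It was called in both comparisons (-1.74 ± 0.51 and 1.55 ± 0.51, limma adjusted p = 0.026 and 0.038), with REG replicate 2 inside the MUT range. The call between REG and MUT held under 6 of 22 alternatives and was lost without any single WT library and without REG replicate 1 or 3 or MUT replicate 1 or 3. That between MUT and WT held under 13 of 22 and was lost without any single WT library and without MUT replicate 1 or 3. Derl3, a Derlin of the degradation channel and a target of XBP1, had 1.16, 0.627 and 3.63 in REG, 1.74, 1.20 and 1.90 in MUT, and 6.12, 6.39 and 6.97 in WT. It was 3.50-fold lower in MUT than in WT (-1.81 ± 0.49, limma adjusted p = 0.018), and REG did not differ from MUT by the test (-0.10 ± 0.49, adjusted p = 0.89). All 3 REG values lay below all WT values, by a log2 difference of -1.91 ± 0.49 that was not called (adjusted p = 0.5). Of all genes tested, 12.1% had every REG library below every WT library. Without REG replicate 3 this difference was -2.48 and was called (limma adjusted p = 0.015), 1 of the 33 genes, where 4.07% of all genes were then called lower and 1.41% higher in REG than in WT.

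Sel1l, the scaffold of the HRD1 ligase, was called lower in MUT at the edge of the threshold (-1.19 ± 0.41, limma adjusted p = 0.044), and its sign turned under total-read scaling (0.032) and after background subtraction (0.020). Syvn1, which encodes HRD1 itself, had 5.48, 16.3 and 11.0 in REG, 5.08, 4.24 and 7.15 in MUT, and 13.8, 9.87 and 10.8 in WT, and was not called (adjusted p = 0.088 in MUT against WT). Derl1, a relative of Derl3, differed by -1.59 ± 0.64 in MUT from WT (adjusted p = 0.079). Edem1, a mannosidase-like protein that marks glycoproteins for removal and a target of XBP1, had 16.6, 9.84 and 28.6 in REG, 14.4, 22.1 and 23.2 in MUT, and 24.2, 18.6 and 15.3 in WT. In deposited values the 3 groups of Edem1 overlapped fully (0.03 ± 0.44 in MUT against WT, limma adjusted p = 0.96). On RPM values Edem1 had 80.9, 74.8 and 141 in MUT, above all WT and all REG libraries. Of all genes tested, 48.5% had every MUT library above every WT library on RPM values.

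Of the 3 translocon genes, 2 fell in MUT and 1 rose in REG relative to MUT. Sec61a1, the channel subunit, had 36.8, 23.4 and 35.5 in REG, 8.52, 16.2 and 4.82 in MUT, and 22.9, 35.5 and 37.2 in WT (-1.79 ± 0.46 and 1.79 ± 0.46, limma adjusted p = 0.016 and 0.015). Ssr1, a subunit of the TRAP complex beside the channel, was lower in MUT (-1.64 ± 0.51, limma adjusted p = 0.031) and not called in REG against MUT (1.12 ± 0.51, adjusted p = 0.11). Sec61b, the small subunit, had 17.5, 66.7 and 7.59 in REG, 2.505, 18.2 and 2.10 in MUT, and 4.74, 4.53 and 6.34 in WT. It was not called in any comparison, but all 3 REG libraries lay above all WT libraries (1.94 ± 0.87, limma adjusted p = 0.53), as they did for Hspa5 and Pdia3, so for 3 of the 33, against 4.03% of all genes. For Sec61b, 23.5% of its 31-base words occur in other genes, mostly a pseudogene.

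**Figure D3:**
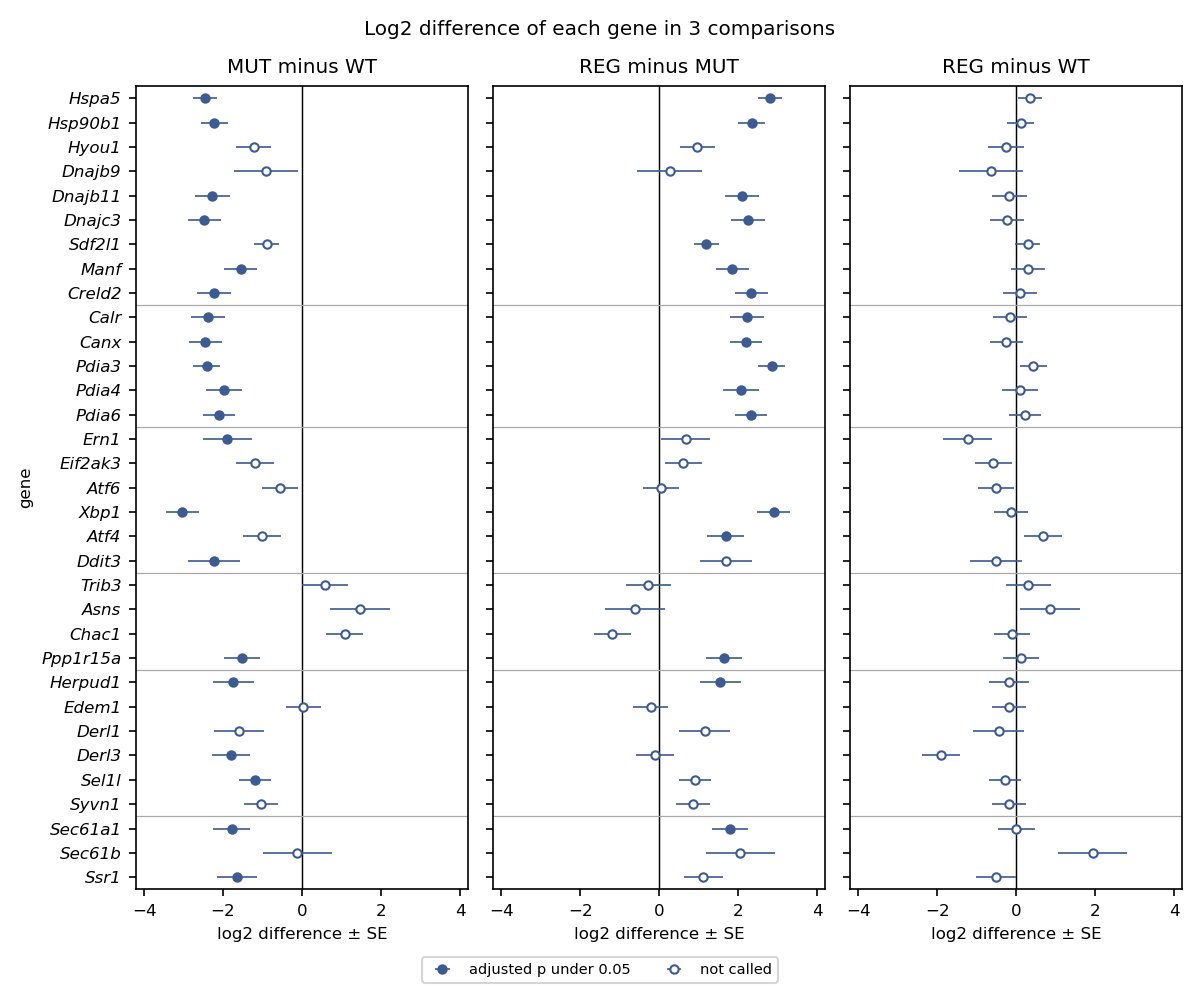
Log2 difference ± SE from limma of each gene in MUT minus WT, REG minus MUT and REG minus WT, with filled points called at an adjusted p under 0.05. Most chaperone and isomerase rows lie near -2 in the first panel and near 2 in the second. No point of the third panel is filled.

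Matrix genes had larger median differences than the chaperones, a contrast that was not tested. The order was not the same in every MUT library. In MUT replicate 2 the median log2 difference from the WT mean was -2.04 for matrix genes. There it was -1.78 for the Hsp70 and Hsp90 system and -2.27 for the lectin chaperones and isomerases. In MUT replicates 1 and 3 matrix genes stood at -3.65 and -4.65, below both classes. Of 24 matrix genes, 22 fell in MUT relative to WT and 22 rose in REG relative to MUT, with median log2 differences of -3.26 and 3.02. Between REG and WT their median was -0.58, with 0 called. Col1a1, the main chain of bone collagen, had 7794, 7748 and 21288 in REG, 1491, 10061 and 838 in MUT, and 16370, 29123 and 18571 in WT. Serpinh1 encodes HSP47, the collagen-specific chaperone, and had 319.5, 304.5 and 260.4 in REG, 22.6, 68.0 and 8.50 in MUT, and 200.6, 276.9 and 279.4 in WT. Creb3l1, the stress transducer of osteoblasts that raises collagen genes, differed by -2.94 ± 0.43 in MUT from WT and by 2.72 ± 0.43 in REG from MUT (limma adjusted p = 0.0019 and 0.0025).

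The MUT libraries spread widely in matrix expression and little in chaperone expression. The 24 matrix genes took 56314, 63626 and 97754 RPM in REG, 16437, 53947 and 9941 RPM in MUT, and 75331, 119044 and 91464 RPM in WT. The 14 folding genes (the Hsp70 and Hsp90 system with the lectin chaperones and isomerases) took 1963, 2352 and 2270 RPM in REG, 895, 680 and 892 RPM in MUT, and 1371, 1615 and 1848 RPM in WT. In RPM, MUT replicate 2 had the highest matrix sum and the lowest folding sum of its group. Its matrix sum in RPM was close to that of REG replicate 1. In deposited values MUT replicate 2 had the highest sum of its group in both folding classes and in matrix genes. The order of the MUT libraries by folding sum thus depended on the scaling. Col1a1 and Col1a2, the chains of type I collagen, made 10061 and 3465 of the deposited matrix sum of 15863 in MUT replicate 2. Col3a1, the chain of type III collagen, ranged from 2845 to 3686 in REG, stood at 56.4 in MUT replicate 2 and ranged from 4212 to 8468 in WT. Per 1000 units of matrix signal the folding genes took 34.9, 37.0 and 23.2 units in REG, 54.5, 12.7 and 89.9 in MUT, and 18.2, 13.6 and 20.2 in WT. This ratio lay higher in every REG library than in every WT library, while the MUT libraries lay on either side.

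**Figure D4:**
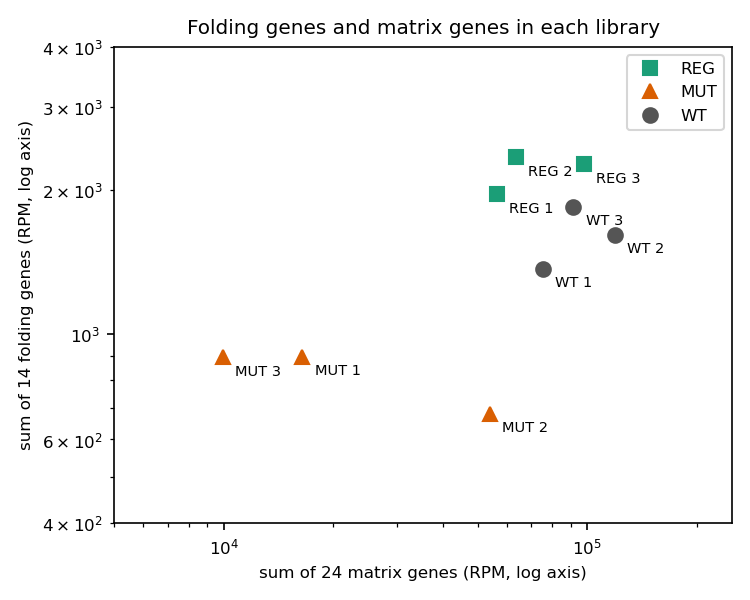
Sum of 14 folding genes against the sum of 24 matrix genes in each library, in RPM on log axes. The 3 MUT libraries lie between 680 and 895 RPM of folding genes, while their matrix sum runs from 9941 to 53947 RPM. The REG libraries lie above the WT libraries on the folding axis in RPM. In deposited values, REG and WT overlap in the sums of both folding classes.

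Ratios of genes within a library do not depend on its scaling and were chosen with the values known, so they are given without a test. Hspa5 over Atf6, the deposited values divided, was 9.19, 17.3 and 6.14 in REG, 2.61, 0.960 and 1.18 in MUT, and 5.84, 4.67 and 5.84 in WT. Hspa5 over Edem1 was 7.92, 16.8 and 4.51 in REG, 1.40, 0.967 and 0.768 in MUT, and 4.15, 5.94 and 8.002 in WT. Both ratios were lower in all 3 MUT libraries than in any REG or WT library. Hspa5 over Col3a1 went the other way and was higher in all 3 MUT libraries than in any REG or WT library. It was 0.046, 0.051 and 0.035 in REG, 2.16, 0.379 and 0.924 in MUT, and 0.024, 0.013 and 0.018 in WT. A further pair of ratios did not set MUT apart from both groups. Atf4 over Atf6 was 2.30, 7.83 and 1.38 in REG, 1.24, 0.839 and 0.743 in MUT, and 0.958, 1.39 and 1.52 in WT, and Hspa5 per 1000 units of Col1a1 was 16.9, 21.3 and 6.07 in REG, 13.5, 2.12 and 21.3 in MUT, and 6.14, 3.79 and 6.61 in WT. In MUT replicate 1, 39.4% of the Atf6 reads equalled the background estimate.

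The number of genes called depended on the scaling. When values were scaled to total reads, 8 of the 33 genes were called in MUT against WT, with Hspa5, Hsp90b1, Calr, Pdia3 and Xbp1 lower and Asns, Chac1 and Edem1 higher. Of all genes, 2.88% were then lower and 36.6% higher, and the median over all genes was 1.08 on the log2 scale, against -0.44 for the 33, which lay 1.52 below it. In REG against MUT, 8 of the 33 were then higher and 1, Chac1, lower, where 3.24% of all genes were higher and 35.9% lower. On RPM values all 3 MUT libraries lay below all WT libraries for 12 of the 33, against 7.87% of all genes tested, and above them for 4, against 48.5%. The 33 genes together took 2694, 3329 and 3094 RPM in REG, 1571, 1329 and 1798 in MUT, and 1969, 2293 and 2551 in WT, without overlap of MUT with either.

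After the background estimate was subtracted and reads were scaled to the total, Xbp1 was the 1 gene still called in MUT against WT, where 2.7% of all genes were lower and 11.2% higher. In REG against MUT, Hspa5, Pdia3 and Xbp1 were called higher, where 2.56% of all genes were higher and 10.3% lower. More than 20% of the reads equalled the background estimate for 1, 2 and 0 of the 33 genes in REG, for 20, 12 and 14 in MUT, and for 0, 0 and 2 in WT. Xbp1 was called in both comparisons under all 22 alternatives tried, with its log2 difference between MUT and WT from -3.46 to -1.89. Hspa5 kept its direction in all 22, from -2.83 to -1.05 in MUT against WT, and lost its call after background subtraction. With a filter 10 times stricter, 31 of the 33 were tested, and 19 were lower in MUT than in WT, where 34.8% of all genes were lower and 7.95% higher. In REG against MUT 17 were then higher, where 24.3% of all genes were higher and 7.62% lower.

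Single libraries moved the counts as well. The 20 calls in MUT against WT became 13, 11 and 11 without WT replicate 1, 2 or 3, and 12 without MUT replicate 3. The share of all genes called lower also dropped, to 9.83%, 6.43%, 7.53% and 9.85% in these fits in turn, against 14.6% with all libraries. Of the 20 genes, 11 were called in all 9 fits that left out a library, which were Xbp1, the 5 lectin chaperones and isomerases, Hspa5, Hsp90b1, Dnajb11, Dnajc3 and Creld2. Manf, Ern1, Ddit3, Ppp1r15a, Herpud1, Derl3, Sel1l, Sec61a1 and Ssr1 each lost the call in at least 1 of them. In REG against MUT, 12 of the 17 were called in all 9 fits, and Sdf2l1, Atf4, Ppp1r15a, Herpud1 and Sec61a1 were not. With MUT replicate 2, the MUT library of lowest background, as the only MUT library, 10 were called in each comparison, where 5.96% of all genes were lower in MUT than in WT and 4.81% higher in REG than in MUT. The spread of MUT was then taken from the other groups. With REG replicate 3 as the only REG library, 15 of the 17 genes called in REG against MUT were called again, where 13.7% of all genes were higher. The library names of REG replicate 3 and MUT replicate 2 differ in form from those of the rest of their groups, and that of MUT replicate 2 does not carry the name of its group. Their groups were taken from the sample titles. The names of REG replicates 1 and 2 have a form that no WT or MUT library shares, and their end numbers repeat those of WT replicates 2 and 3. MUT replicate 2 also had the highest Twist1 and Col1a1 values of the MUT libraries (8.08 and 10061), and the sequencing run of each library is not given in the labels.

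**Figure D5:**
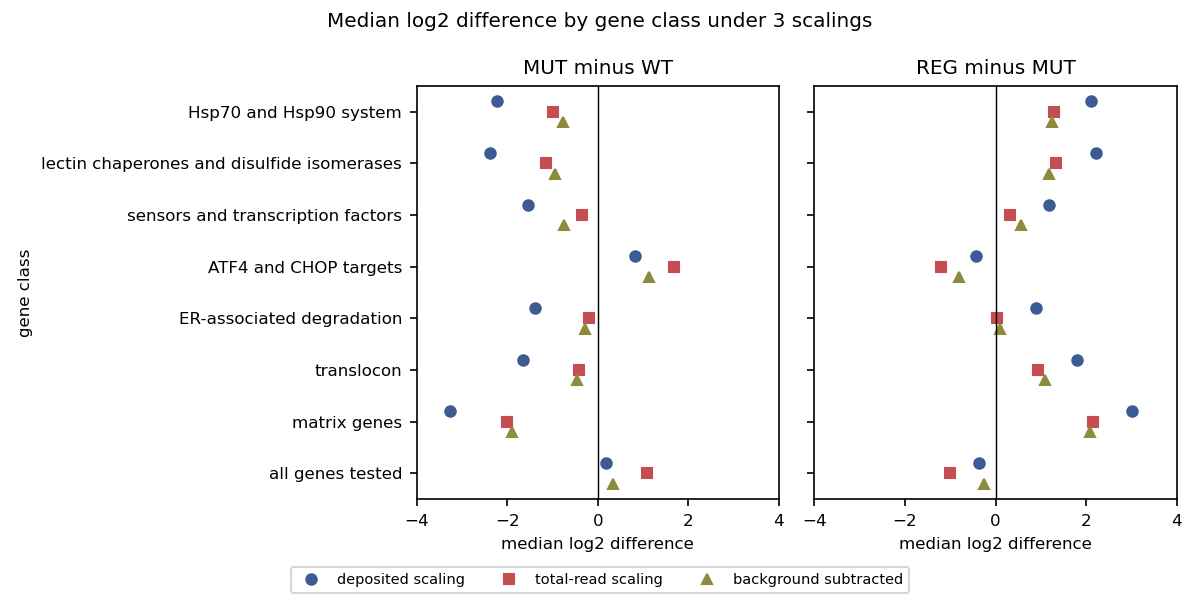
Median log2 difference of each class of the 33 genes, of the 24 matrix genes and of all genes tested in MUT minus WT and REG minus MUT, under the deposited scaling, total-read scaling and background subtraction. The folding classes keep their sign under all 3, between -2.38 and -0.76 in MUT against WT, while the ER-associated degradation class lies near 0 under the last 2.

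Other genes of the secretory pathway were counted in 5 further lists. Among 20 other folding enzymes, 10 fell in MUT relative to WT and 9 rose in REG relative to MUT. P4hb, the disulfide isomerase that is also a subunit of collagen prolyl hydroxylase, had 142, 128 and 140 in REG, 25.6, 23.5 and 9.18 in MUT, and 95.9, 145 and 146 in WT. Among 23 genes of COPII and Golgi transport, which carry cargo out of the ER, 17 fell and 18 rose, as in Sec24d, a coat subunit known for export of collagen, with -2.45 ± 0.33 in MUT from WT and 2.73 ± 0.33 in REG from MUT (limma adjusted p = 0.0015 and 0.0012). Among 27 genes of translocation and glycosylation 11 fell and 13 rose, among them Stt3b, a catalytic subunit that attaches glycans (-2.48 ± 0.32 and 2.25 ± 0.32). Among 16 other degradation genes 9 fell and 7 rose. No gene of these 4 lists was called in the other direction under the deposited scaling. Of all genes tested, 14.6% were called lower in MUT than in WT and 11.8% higher in REG than in MUT. With the filter 10 times stricter these shares were 34.8% and 24.3%. Whether the lists differ from other genes of like level was not tested.

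The list of 33 other stress regulators and ATF4 targets was mixed, with 14 lower and 2 higher in MUT than in WT, and 12 higher and 3 lower in REG than in MUT. Of all genes tested, 14.6% were lower and 20.5% higher in MUT than in WT. In REG against MUT, 11.8% of all genes were higher and 24.8% lower. With the filter 10 times stricter, 34.8% of all genes were lower in MUT and 24.3% higher in REG than in MUT. Cebpb, a factor that pairs with CHOP, had 28.0, 21.1 and 28.2 in REG, 2.88, 2.54 and 4.30 in MUT, and 26.7, 33.7 and 30.6 in WT. The genes that rose in MUT were Bcl2l11, which encodes the death factor BIM (3.32 ± 0.50, limma adjusted p = 0.0021), and Slc7a11, the cystine transporter and an ATF4 target (1.49 ± 0.39, adjusted p = 0.017). Both fell in REG relative to MUT (-3.50 ± 0.50 and -1.53 ± 0.39, limma adjusted p = 0.0019 and 0.014), as did Ern2, the epithelial relative of IRE1 (-1.53 ± 0.44, adjusted p = 0.022).

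Plasma cells, which are rich in these chaperones and in Xbp1, were followed by 6 markers. Of the 5 that were tested 0 were called in MUT against WT, and 2, Sdc1 and Igkc, were higher in REG than in MUT. The 6 markers summed to between 355 and 734 RPM in REG, between 137 and 526 in MUT and between 101 and 183 in WT, and Tnfrsf17 was at 0 reads in REG replicate 2, MUT replicate 2 and WT replicate 3, and Mzb1 at 0 in REG replicate 2. Of the 8 osteoblast markers 6 fell in MUT and 5 rose in REG relative to MUT, with sums of 2222 to 3188 RPM in REG, 522 to 2967 in MUT and 2134 to 3603 in WT. Of the 6 mesenchyme markers 6 fell and 4 rose. Twist1, of which MUT and REG have lost a copy, is among these 6. Of the 5 macrophage markers 4 fell and 4 rose. Of the 7 B cell markers 2 were higher in MUT than in WT and 1 was lower in REG than in MUT, with sums of 163 to 308 RPM in REG, 1684 to 5573 in MUT and 62.7 to 222 in WT. Of the 3 neuron markers 2 were higher in MUT than in WT and 2 lower in REG than in MUT, with sums of 4.82 to 16.2 RPM in REG, 142 to 273 in MUT and 6.52 to 16.0 in WT. Neutrophil and erythroid markers gave 0 calls in MUT against WT and 1 and 0 in REG against MUT, and of the 4 muscle markers 0 and 3 were called. Of all genes tested, 14.6% were called lower and 20.5% higher in MUT than in WT. In REG against MUT, 11.8% of all genes were called higher and 24.8% lower. Whether any marker list differs from these shares was not tested. The part of these cell types in the chaperone differences was not tested.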

How the data were processed

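Single-end RNA sequencing (75 cycles) was deposited for 9 libraries of coronal suture, 3 each for REG, MUT and WT, with RNA integrity numbers above 9. Alignment was by STAR 2.6.1d to mm10 with Partek for processing, per the submitters' processing notes. How reads were counted and normalized, and on which annotation, was not stated in the labels.

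Deposited matrix values are upper-quartile scaled signal, (estimated reads + 1) times a factor per library, judged from the values themselves. The authors' deposited table gives log2 ratios, p-values with FDR, and least-squares mean signal per gene, with WT over MUT, REG over MUT and WT over REG as directions. Unnamed matrix columns were matched to that table by 4 statistics, which agreed for 43644 of 43644 genes (relative tolerance 1e-06; the set of 4 was unique for 43481).

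Differences are on log2(value + 0.367), which understates changes of low genes. Genes that reached 0.367 in 3 or more libraries were fitted together with limma 3.58.1 (R 4.3.3), all 9 libraries in 1 fit, two-sided, Benjamini-Hochberg adjusted over 29107 genes. The scripts were tested on simulated data. With 3 against 3 libraries an exact permutation test cannot go below 0.1 and was not used. Where nothing says that libraries are separate animals, the p-values cover only how far these libraries differ, which may be technical. Same-numbered libraries did not deviate together, so no pairing was used. The labels also speak of pairs of samples and of a time since induction, which they do not explain, and the age was taken from each library's own label. Exon lengths were from GENCODE M21, found for 98.5% of genes, and background density from 1747 olfactory and vomeronasal receptor genes. All 33 genes are named, with Twist1, Col1a1, Col1a2, Col3a1, Serpinh1, Creb3l1 and up to 2 called genes of smallest p per further list and comparison. A gene that this rule would name is not reported here. The genes, lists and rules were chosen with earlier results of these data known. Python 3.11.15, pandas 2.3.3 and matplotlib 3.10.9 made tables and figures.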

Additional observations from a re-analysis of the deposited data

How the results depend on the processing

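The deposited scaling gave 20 of the 33 genes called in MUT against WT and 17 in REG against MUT. In MUT against WT, total-read scaling gave 8 (3 higher, 5 lower), quantile scaling 10, background subtraction 1 and MUT replicate 2 as the only MUT library 10. In REG against MUT the same settings gave 9, 10, 3 and 10. The median log2 difference in MUT against WT was -1.64, and -0.44 under total-read scaling, -2.01 under trimmed-mean scaling, -1.01 under quantile scaling, -0.58 after background subtraction, -1.05 with a pseudocount 10 times larger and -1.37 with MUT replicate 2 alone. In REG against MUT it was 1.65, and 0.81, 2.33, 1.04, 0.75, 1.08 and 1.14 under these settings in turn. In REG against WT it was -0.15, and 0.18 under total-read scaling, 0.18 after background subtraction and 0.23 with REG replicate 3 as the only REG library. Trimmed-mean scaling called 25 of the 33 lower in MUT than in WT and 24 higher in REG than in MUT. Over all genes in MUT against WT, trimmed-mean scaling gave 13.4% higher and 19.3% lower and quantile scaling 8.78% higher and 8.55% lower. In REG against MUT, trimmed-mean scaling gave 20.8% of all genes higher and 15.3% lower, and quantile scaling 6.39% higher and 8.05% lower. The shares under total-read scaling and background subtraction are given above. Sel1l reversed in MUT against WT, to 0.032 under total-read scaling and 0.020 after background subtraction. The causes of these shifts were not tested.

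Leaving out 1 library at a time gave 11 to 24 genes lower in MUT than in WT and 13 to 20 higher in REG than in MUT. In REG against WT 0 to 1 were called, where the 1 gene was Derl3. Over all genes the fits without 1 library called 6.43% to 18.98% lower in MUT than in WT and 7.84% to 14.7% higher in REG than in MUT. In REG against WT they called 0%, except without REG replicate 3, with 4.07% lower and 1.41% higher. In the other direction, Asns was higher in MUT than in WT without MUT replicate 1 and Chac1 without MUT replicate 2, where 13.5% and 20.1% of all genes were higher. Chac1 was lower in REG than in MUT without MUT replicate 2 and without REG replicate 3, where 24.8% of all genes were lower in each. The medians ran from -1.76 to -1.38, from 1.38 to 1.68 and from -0.31 to 0.12. With the replicate number as a block, 19 genes were lower in MUT than in WT, where 12.9% of all genes were lower. In that fit 17 were higher in REG than in MUT, where 10.4% of all genes were higher, and 0 were called in REG against WT, as were 0% of all genes. The same-numbered libraries correlated by -0.20 to 0.10 in their deviations, so the numbers are not shown to pair them. Depth limits low genes in MUT most, where replicate 2 holds 2945636 reads.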
